A study of Homo sapiens with 4 samples.

Results

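The human keratin genes were examined in RNA-seq counts from cells labelled HT1376, an established bladder cancer line. A gene was a member if its row was protein coding and its symbol was KRT followed by a number and at most 1 letter, which gave 55 genes of 61860 in the table (19862 of them protein coding). Of the 55, 28 encode type I keratins, 26 encode type II keratins, and KRT222 is of unclear type. The 4 libraries were made from total RNA of cells kept for 48 h with a control labelled WFI (n = 2) or with enfortumab vedotin (EV) at 1 nM (n = 2). EV is an antibody-drug conjugate that binds nectin-4 and carries monomethyl auristatin E, a payload that disrupts microtubules. All cells were of the same line, and no gene was altered in either group. The comparison asks which keratin transcripts differed after EV.

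Keratins are the intermediate filament proteins of epithelia. A filament forms only from pairs of a type I (acidic) and a type II (basic) chain, so the genes are usually described by partner: KRT8 with KRT18 in simple epithelia, KRT5 with KRT14 in basal cells, KRT6 isoforms with KRT16 and KRT17 in wounded or stressed epithelium, KRT4 with KRT13 in mucosa, KRT1 with KRT10 in the upper epidermis, and a further set in the hair shaft and its root sheath. In the urothelium KRT5 and KRT14 mark basal cells and KRT20 marks the umbrella cells of the surface, while KRT7, KRT8 and KRT18 are found in most layers. Apart from KRT18, which lies beside KRT8, the type II genes form a cluster on chromosome 12 (with 27 of the 55 genes in all) and the type I genes one on chromosome 17 (28 genes, KRT222 included).

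Totals ran from 19368791 to 20727175 counts per library, and 26258 to 26587 genes had a count in WFI against 28770 to 29456 in EV. The cells were checked against marker lists, which gave an incomplete urothelial profile. Of 12 urothelial markers, 5 had 0 counts in both controls (UPK1B, UPK3A, KRT20, TP63 and KRT5). The 7 tested were higher in EV, where 34.5% of all genes tested were higher. Of those 7, KRT5, TP63 and UPK1A passed the filter on low counts only through EV and could only rise, and KRT5 and KRT7 are keratins themselves. The list summed to 500 and 490 CPM in WFI and to 849 and 859 CPM in EV, most of it KRT7. The epithelial markers, 9 genes that include CDH1 and EPCAM, summed to 10.6 and 10.7 CPM (counts scaled to the library size) in WFI and to 12.2 and 11.8 CPM in EV, with GRHL2 at 0 in both controls. CLDN4 held 69.7% and 67.3% of that sum in WFI and 30.2% and 47.8% in EV, while CDH1, the cadherin of epithelial junctions, had 0 and 1 counts in WFI and 9 and 7 in EV. These levels are low for an epithelial line. Other epithelial genes were mixed in WFI. KRT8, KRT18 and DSG2 averaged 733, 387 and 343 CPM, while KRT19 averaged 0.168 CPM and DSG1 had 0 counts. The identity of the cells was not tested, so HT1376 is given as labelled. The 12 mesenchymal markers, with FN1 and VIM on top and TWIST1 and LUM at 0 in the controls, summed to 12386 and 12229 CPM in WFI and to 7666 and 7568 CPM in EV. Most of that sum was FN1, at a mean of 10014 CPM in WFI and 5298 CPM in EV. Of the 7 mesenchymal markers tested, 4 were lower and 2 missed the threshold, where 31.5% of all genes tested were lower. VIM was higher, at 1724 CPM in WFI and 1959 CPM in EV. The endothelial markers summed to 1.94 and 2.34 CPM in WFI and to 4.95 and 6.82 CPM in EV. The immune markers summed to at most 2.39 CPM in WFI and 8.37 CPM in EV, higher in both EV libraries. CDH5 and CD3E were at 0 in the controls. The part of these shifts in the keratin results was not tested, and in bulk RNA a change in the number of cells of a kind and a change in RNA per cell cannot be told apart.

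To show the regulatory sequence around genes that behaved differently, 4 promoters are printed from RefSeq on GRCh38.p14, from 250 bases before to 50 after the annotated start, 5′ to 3′ on the gene's own strand. KRT10 rose from a mean of 37.6 CPM in WFI. KRT5 and KRT4 went from 0 counts to the largest levels among the keratins that were silent in WFI. The 4th gene, KRT20, had 0 counts in every library. Capitals mark TATAAA (the TATA box), and CACCC, a core that KLF and SP factors can bind, each searched on both strands, so that CACCC on the other strand reads GGGTG.
KRT10, chr17:40822565-40822864, minus strand: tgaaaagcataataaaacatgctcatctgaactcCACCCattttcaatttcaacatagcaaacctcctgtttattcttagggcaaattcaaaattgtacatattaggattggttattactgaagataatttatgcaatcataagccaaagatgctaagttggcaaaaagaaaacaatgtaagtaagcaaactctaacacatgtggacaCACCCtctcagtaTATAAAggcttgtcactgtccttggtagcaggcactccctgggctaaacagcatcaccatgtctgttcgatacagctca
KRT5, chr12:52520345-52520644, minus strand: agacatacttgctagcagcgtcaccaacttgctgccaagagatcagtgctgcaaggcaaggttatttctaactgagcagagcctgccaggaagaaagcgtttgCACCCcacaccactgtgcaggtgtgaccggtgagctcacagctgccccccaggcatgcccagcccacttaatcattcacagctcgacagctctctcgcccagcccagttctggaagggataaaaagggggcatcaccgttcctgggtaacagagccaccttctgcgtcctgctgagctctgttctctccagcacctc
KRT4, chr12:52814067-52814366, minus strand: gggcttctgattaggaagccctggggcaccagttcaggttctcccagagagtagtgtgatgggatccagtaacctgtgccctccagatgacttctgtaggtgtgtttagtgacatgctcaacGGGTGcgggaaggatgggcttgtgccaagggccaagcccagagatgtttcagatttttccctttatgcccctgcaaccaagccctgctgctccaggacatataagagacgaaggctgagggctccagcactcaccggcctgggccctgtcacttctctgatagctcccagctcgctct
KRT20, chr17:40885193-40885492, minus strand: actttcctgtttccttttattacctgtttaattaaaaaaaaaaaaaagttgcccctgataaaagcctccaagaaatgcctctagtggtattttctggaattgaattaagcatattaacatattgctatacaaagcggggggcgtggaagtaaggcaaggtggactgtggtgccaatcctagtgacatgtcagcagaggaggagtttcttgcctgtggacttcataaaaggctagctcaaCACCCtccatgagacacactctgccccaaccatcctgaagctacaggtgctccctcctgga
In KRT10 the TATA box began 29 bases before the start, with CACCC 42 and 216 bases before it. KRT5 had 1 CACCC, KRT4 had 1 on the other strand and KRT20 had 1, none with TATAAA. The promoter of KRT8, a far more abundant keratin that also rose, is not printed and held 2 CACCC and no TATAAA. Across the 34 keratins with an entry, 20 promoters held TATAAA (58.8%, against 11.5% of 35116 entries of the same length) and 26 held CACCC (76.5% against 59.9%). The GC box GGGCGG was found in 6 (17.6% against 45.0%), and the AP-1 motif TGANTCA in 0 (against 7.71%). TATAAA was in 9 of the 15 promoters of genes that were silent in WFI and had counts in both EV libraries, and in 6 of the 9 promoters of genes at 0 in every library. The table's start need not be the one used in these cells, and a match is only a description of the letters.

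Keratins took a larger share of the RNA after EV. Their summed counts were 39911 and 40172 in WFI and 68287 and 73177 in EV, which is 0.205% and 0.204% against 0.353% and 0.353% of all counts. KRT8, KRT7, KRT18 and KRT81 held 93.2% to 95.4% of the keratin counts in each library, so these few genes set the total. In edgeR's quasi-likelihood test 23 keratins passed the filter on low counts, with 17 higher in EV, 2 lower and 4 that missed an adjusted p of 0.05. Among all 17465 genes tested, 66% changed, 34.5% higher and 31.5% lower, so a change as such was common in this contrast. Of the 17 that rose, 12 lay below the filter's limit of 0.511 CPM in both controls and entered the test only through EV, so they could only rise: 10 had 0 counts in both controls, and the others were KRT16 and KRT79. Their values are given below as a description, with no p. Of the 11 keratins with 10 or more counts in both WFI libraries, 5 rose, 2 fell and 4 missed the threshold. Their median was -0.09 on the log2 scale. The same over all 15152 such genes gave 28.6% higher, 36.3% lower and a median of -0.13.

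**Figure D1:**
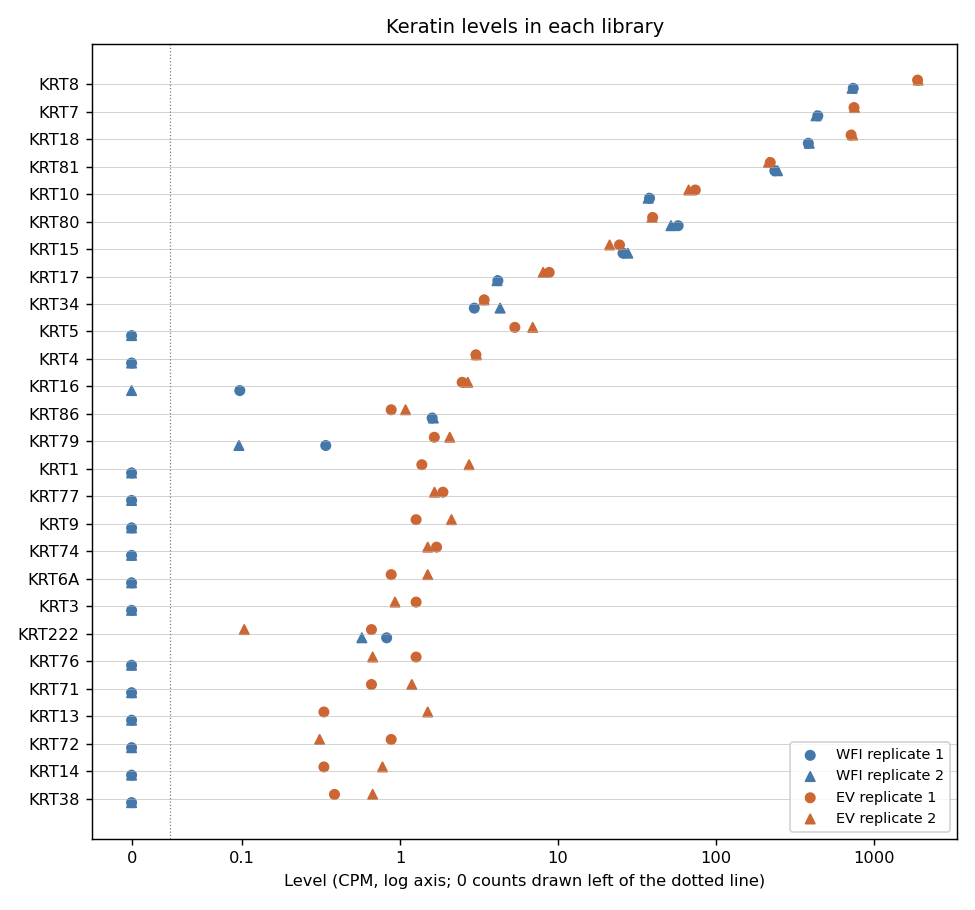
Levels of the 27 keratins with 10 or more counts in at least 1 library, in CPM on a log axis, with 1 point per library (circles replicate 1, triangles replicate 2, blue WFI, orange EV). KRT8, KRT7 and KRT18 are higher in both EV libraries, while many genes lie at 0 in WFI and near 1 CPM in EV.

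The simple keratins were the most abundant, and the 3 that passed the filter rose. KRT8, the type II chain of simple epithelia (ENSG00000170421, chromosome 12, 52897187 to 52949954 on hg38), stood at 739 and 727 CPM in WFI and at 1888 and 1903 CPM in EV. Both EV libraries lay far above both controls, a 2.59-fold rise (log2 fold change 1.37, SE 0.03, edgeR adjusted p = 6.13e-12). KRT18, its type I partner (ENSG00000111057, chromosome 12, 52948871 to 52952901), stood at 384 and 389 CPM in WFI and at 717 and 734 CPM in EV. It rose by a log2 fold change of 0.91 (SE 0.03, edgeR adjusted p = 7.10e-10). KRT7, a type II chain of ductal and urothelial cells (ENSG00000135480, chromosome 12, 52232520 to 52252186), stood at 441 and 430 CPM in WFI and at 748 and 753 CPM in EV. Its log2 fold change was 0.78 (SE 0.03, edgeR adjusted p = 2.07e-09). For all 3 genes the libraries of a group lay close together. The other simple keratins were near absent: KRT19, a type I chain that lacks most of the tail, had 1 and 6 counts in WFI and 0 and 1 in EV. KRT20 had 0 counts in every library, where the 3 counts that a library with a 0 allows correspond to 0.144 CPM in the controls.

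KRT8 rose more than its partner. The ratio of KRT8 to KRT18, in CPM without division by length, was 1.92 and 1.87 in WFI and 2.64 and 2.59 in EV, so that both EV libraries lay above both controls. The ratio of KRT8 to KRT7 went from 1.68 and 1.69 to 2.53 and 2.53. An exact two-sided permutation test of each ratio gave p = 0.333, the smallest p that 2 against 2 samples allow. Transcript length cancels in these changes, though not in the ratios themselves. KRT8 and KRT18 overlap on opposite strands, and the strand setting of the counting is not given in the sources used here, so reads in the overlap could have gone to either gene. The coding sequences of KRT8 and KRT18 are 45.1% identical and those of KRT7 and KRT8 64.7%, while processed pseudogenes are nearer copies. All KRT8 pseudogene rows together had 190 and 190 counts in WFI and 432 and 468 in EV, and the KRT18 pseudogene rows 60 and 56 against 171 and 124, few beside the parent genes.

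Per length, levels of different genes can be set side by side. Per kilobase of merged exons KRT81 stood at 125 CPM in WFI, KRT18 at 120, KRT8 at 107 and KRT7 at 106, and in EV KRT8 stood at 276, KRT18 at 225, KRT7 at 183 and KRT81 at 113. The merged exons of KRT8 add up to 6881 bases against a coding sequence of 1533 bases, which lowers its value. Per kilobase of coding sequence, a scale chosen after seeing the data, KRT8 was highest in both groups, at 478 CPM in WFI and 1237 in EV, with KRT7 at 310 and 533, KRT18 at 300 and 562 and KRT81 at 159 and 144. On either scale the share of the summed keratin level held by KRT8 was higher in EV (32.0% and 32.1% against 21.7% and 21.3% per merged exons, and 47.7% and 47.7% against 36.0% and 35.6% per coding sequence). The share of KRT81 was lower in EV, at 13.3% and 12.9% against 24.6% and 25.6% per merged exons. Simple keratins together held 67.5% and 66.7% of the level in WFI and 79.3% and 80.0% in EV.

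**Figure D2:**
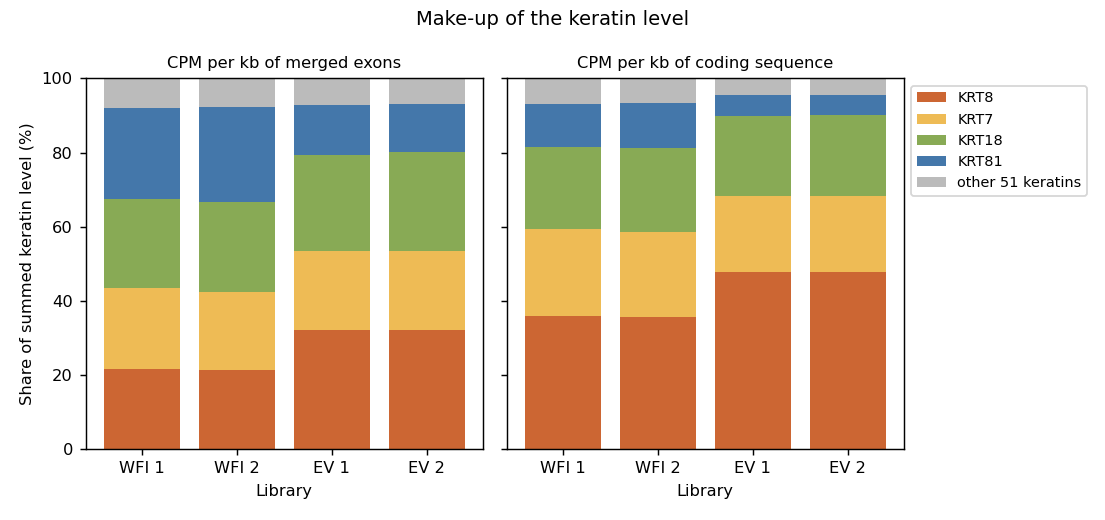
Share of the summed keratin level (%) held by KRT8, KRT7, KRT18, KRT81 and the remaining 51 keratins in each of the 4 libraries, with CPM per kilobase of merged exons on the left and of coding sequence on the right. On the left KRT8 goes from 21.7% and 21.3% in WFI to 32.0% and 32.1% in EV, and KRT81 takes a smaller share.

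The balance of the partner classes depended on the length used. Summed per kilobase of merged exons, type II chains exceeded type I chains 2.44-fold and 2.40-fold in WFI and 2.19-fold and 2.18-fold in EV (exact two-sided permutation p = 0.333, the smallest possible). Per kilobase of coding sequence the ratio instead went up, from 2.89 and 2.80 to 3.10 and 3.08, and so it did in CPM without length (3.24 and 3.15 to 3.50 and 3.48). The direction of the type II to type I balance is therefore not settled by these counts.

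Basal keratins were uneven, with a type II chain that appeared and a type I chain that did not pass the test. KRT5, the basal type II chain (ENSG00000186081, chromosome 12, 52514575 to 52520687), had 0 counts in both controls and 97 and 134 counts in EV, or 5.33 and 6.92 CPM. Against the floor of 3 counts per library it was at least 42.4-fold higher. KRT14, its usual type I partner, had 0 counts in WFI and 6 and 15 counts in EV, which lay below the filter. KRT15, a type I chain of basal and stem cells, stood far above both, at 25.8 and 27.7 CPM in WFI and at 24.5 and 21.2 CPM in EV. It did not pass (log2 fold change -0.23, SE 0.11, edgeR adjusted p = 0.0925). Without EV replicate 1 the KRT15 value was -0.34 (edgeR adjusted p = 0.0253), and with no count filter it was -0.30 (edgeR adjusted p = 0.0344), both past the threshold. An offset for spliced length gave -0.02 (edgeR adjusted p = 0.898).

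Of the 5 keratins of wounded and stressed epithelium, KRT17 rose from a low level, KRT16 and KRT6A passed the filter only through EV, and KRT6B and KRT6C lay below it. KRT17, a type I chain (ENSG00000128422, chromosome 17, 41619441 to 41624842), went from 4.16 and 4.11 CPM in WFI to 8.80 and 8.06 CPM in EV. That was a log2 fold change of 1.02 (SE 0.20, edgeR adjusted p = 0.000964). KRT16, the type I partner of KRT6 chains, had 2 and 0 counts in WFI and 45 and 52 counts in EV. The ratio was 53.7, with an exact 95% interval of 14.5 to 450 that covers counting error only. KRT6A had 0 counts in WFI and 16 and 29 counts in EV, at least 8.24-fold higher. KRT6B had 4 and 5 counts in EV and KRT6C 9 and 3, with 0 in WFI, both below the filter. The coding sequence of KRT6A is 97.5% identical to that of KRT6B and 97.9% to that of KRT6C, so how reads were divided between these 3 genes is uncertain. The same holds for KRT14, KRT16 and KRT17, which have unprocessed pseudogenes on the same chromosome. Of those, KRT17P1 had 0 counts in WFI and 22 and 55 in EV, KRT17P5 0 and then 22 and 21, and KRT16P6 0 and then 15 and 15.

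Among the keratins of the epidermis, mucosa and cornea, KRT10 was the 1 gene with counts in the controls. KRT10, a type I chain of the suprabasal epidermis (ENSG00000186395, chromosome 17, 40818117 to 40822595), went from 38.0 and 37.2 CPM in WFI to 74.0 and 67.1 CPM in EV. It rose by a log2 fold change of 0.91 (SE 0.08, edgeR adjusted p = 1.24e-06). KRT10-AS1, which overlaps it on the other strand, had 179 and 209 counts in WFI and 187 and 161 in EV and did not pass (edgeR adjusted p = 0.977). KRT1, the type II partner of KRT10, had 0 counts in WFI and 25 and 53 in EV, at least 14.2-fold higher. KRT77 reached 34 and 32 counts in EV, KRT9, the chain of palm and sole skin, 23 and 41, and KRT2 3 and 9, each from 0. The mucosal KRT4 had 0 counts in WFI and 55 and 59 in EV, at least 21.03-fold higher. Its type I partner KRT13 had 0 counts in WFI and 6 and 29 in EV, below the filter, with EV replicate 1 well under EV replicate 2. KRT76, of the palate and gum, reached 23 and 13 counts from 0. The corneal KRT3 reached 23 and 18 counts from 0, whereas its partner KRT12 had 0 counts in every library. Among further type II chains, KRT80 (ENSG00000167767, chromosome 12, 52168996 to 52192000) went down from 57.6 and 51.9 CPM to 39.7 and 39.4 CPM. The log2 fold change was -0.47 (SE 0.08, edgeR adjusted p = 0.000376). KRT79, which passed the filter only through EV, had 7 and 2 counts in WFI and 30 and 40 in EV. KRT78 had 0 and 4 counts in WFI and 4 and 8 in EV. The type I genes KRT23 and KRT24 had 0 in every library.

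**Figure D3:**
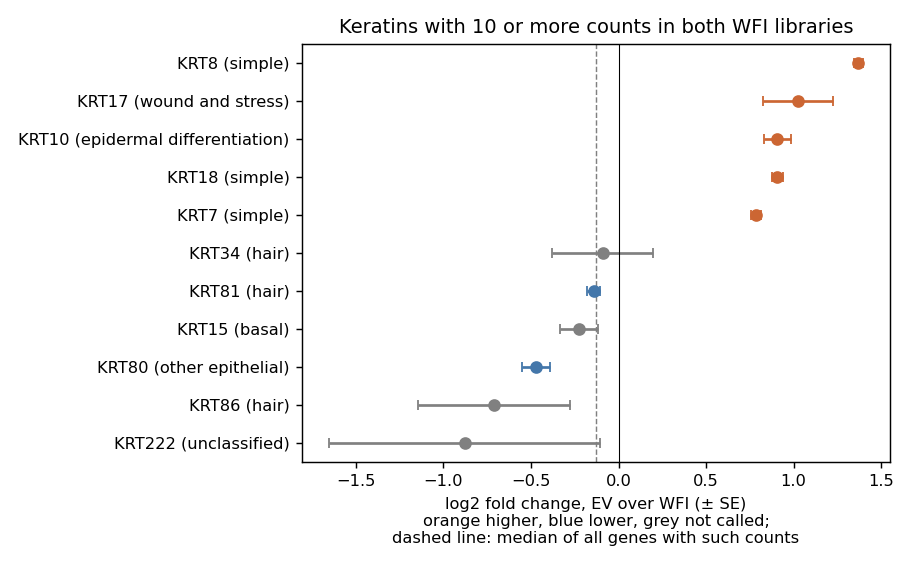
Log2 fold change of EV over WFI with its SE for the 11 keratins with 10 or more counts in both WFI libraries, with orange for those that rose, blue for those that fell and grey for those that did not pass. The 3 simple keratins, KRT17 and KRT10 lie between 0.78 and 1.37, well apart from the dashed median of -0.13 over all 15152 genes with such counts.

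Of 17 hair keratins, which build the hair shaft, only KRT81 was abundant. KRT81, a type II hair chain (ENSG00000205426, chromosome 12, 52285913 to 52291534), stood at 236 and 245 CPM in WFI and at 221 and 215 CPM in EV. It fell by 0.14 on the log2 scale (SE 0.04, edgeR adjusted p = 0.00825), a change close to the median of -0.13 over genes with such counts. The call was lost under upper quartile scaling (-0.09, edgeR adjusted p = 0.0762) and without WFI replicate 2 (-0.15, edgeR adjusted p = 0.0576), while an offset for spliced length gave -0.42. KRT34, a type I hair chain, stood at 2.95 and 4.30 CPM in WFI and at 3.41 and 3.41 CPM in EV, with both EV values between the controls (edgeR adjusted p = 0.802). KRT86 had 33 and 34 counts in WFI and 16 and 21 in EV and did not pass (log2 fold change -0.71, SE 0.43, edgeR adjusted p = 0.173), and KRT83 had 7 and 5 against 2 and 1. Their coding sequences are 89.6% and 89.3% identical to that of KRT81, and the KRT86 gene spans KRT81 on the other strand, so their low counts are uncertain. No abundant type I hair partner was found for KRT81: KRT31 reached 6 and 4 counts, KRT33B 8 and 1, KRT36 4 and 6 and KRT38 7 and 13 in EV, all from 0. KRT33A, KRT35, KRT37, KRT39 and KRT40 had 0 counts in every library. KRT32 had 1 and 2 counts in WFI and 2 and 0 in EV. Among the type II hair chains, KRT82 reached 5 and 7 counts from 0, KRT84 2 and 1 from 0, and KRT85 4 and 8 from 0 and 2. Of the 94 genes of keratin-associated proteins, the matrix proteins of hair, none passed the filter and 72 had 0 counts in every library.

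The 9 root sheath keratins, which line the growing hair, were silent or nearly so in the controls. KRT74 had 0 counts in WFI and 31 and 29 in EV, at least 11.1-fold higher, and KRT71 0 and then 12 and 23, at least 6.40-fold higher. KRT72 had 16 and 6 counts in EV, KRT73 2 and 0, KRT25 1 and 9 and KRT28 2 and 0, all from 0 and below the filter, and KRT26 had 0 in every library. KRT27 had 5 and 3 counts in WFI and 7 and 9 in EV. KRT75 had 2 and 1 counts in WFI and was the 1 keratin with counts in WFI and none in EV. KRT222, which lies at the edge of the type I cluster, had 17 and 12 counts in WFI and 12 and 2 in EV and did not pass (edgeR adjusted p = 0.340).

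The keratins silent in the controls gained counts more often in the type II than in the type I cluster. In WFI 35 of the 55 keratins had 0 counts in both libraries. Of these, 25 had a count in EV (71.4%), 23 had one in both EV libraries (65.7%) and 10 had 10 or more counts in both (28.6%). Of all 4097 protein coding genes with 0 counts in both controls, the same was true of 51.4%, 27.6% and 5.32%. All 16 silent type II genes had counts in EV, against 9 of 19 silent type I genes, and the 10 keratins at 0 in every library are type I. For the 19 silent type I genes the shares were 47.4% with a count in EV, 42.1% in both EV libraries and 5.26% with 10 or more in both. The first and last of these lie near the 51.4% and 5.32% of all silent protein coding genes. The difference between the clusters was not tested. The levels stayed low: the 35 genes together had 420 and 539 counts in EV, next to 34354 and 36851 for KRT8 alone. More genes had a count in EV than in WFI in the libraries as a whole, and the part of this in the keratin gains was not tested. Of the 89 keratin-associated protein genes with 0 counts in the controls, 17 had a count in EV (19.1%). Of 98 keratin pseudogenes at 0 in the controls, 38 had a count in EV, and of the 23 unprocessed ones among them 17 did. No share over other pseudogenes is given here. In the opposite direction 17.7% of the 2417 protein coding genes at 0 in both EV libraries had a count in WFI.

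**Figure D4:**
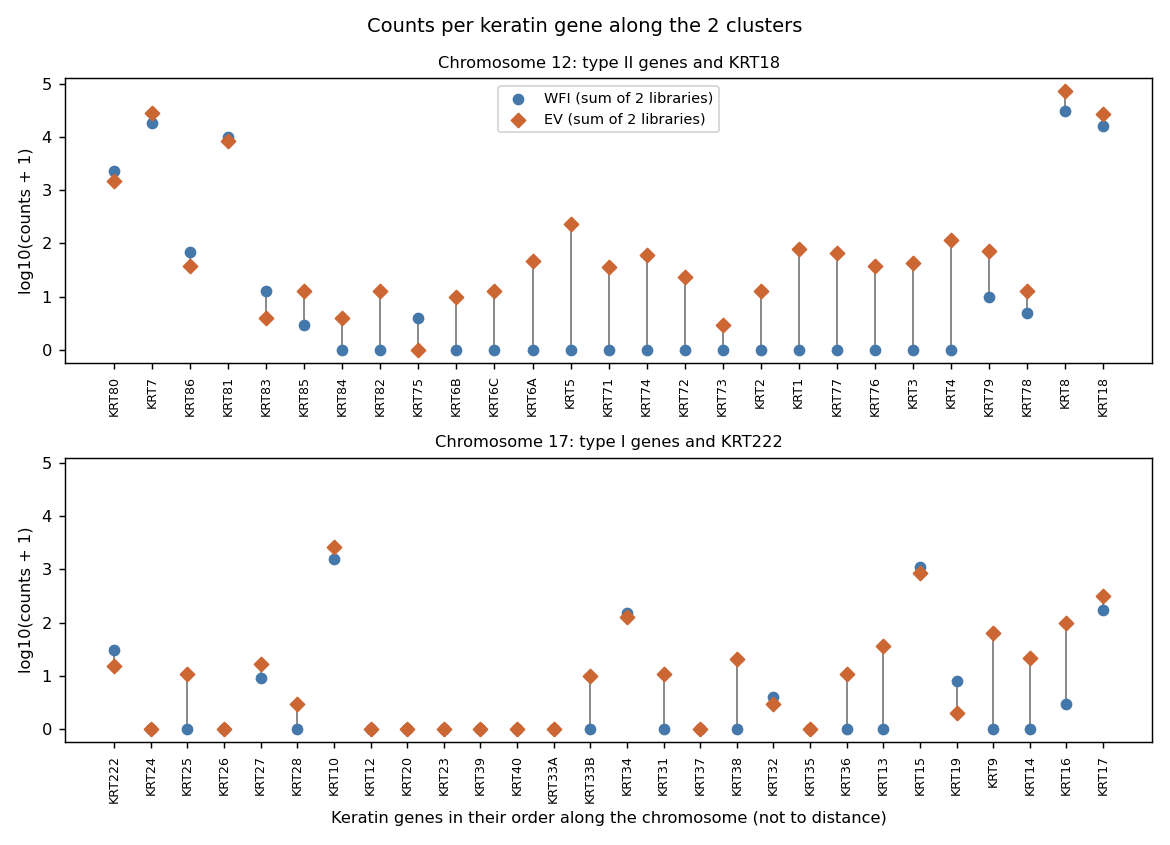
Counts summed over the 2 libraries of a group, as log10(counts + 1), for each keratin gene in its order along chromosome 12 (above) and chromosome 17 (below), with WFI in blue and EV in orange. The run from KRT6B to KRT4 on chromosome 12 is at 0 in WFI and above 0 in EV for every gene, while 10 genes on chromosome 17 stay at 0.

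Next to KRT7, an antisense transcript went the other way. KRT7-AS, which overlaps KRT7 on the opposite strand, had 153 and 108 counts in WFI and 21 and 17 in EV (log2 fold change -2.62, SE 0.33, edgeR adjusted p = 3.61e-05). The pseudogene KRT87P, which also overlaps KRT7, fell from 37 and 41 counts to 12 and 6 (log2 fold change -1.95, edgeR adjusted p = 0.00669). Reads of overlapping genes cannot be told apart without the strand setting of the counting. Both were chosen for mention after their values were seen.

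The genes that work with keratins were counted in 5 related lists, of which 65 genes passed the filter, 35 higher and 18 lower in EV, where 34.5% of all genes tested were higher and 31.5% lower. Of the 35, 9 passed the filter only through EV and could only rise. Among the other 56 tested, 26 were higher and 18 lower. Of all genes with 10 or more counts in both WFI libraries, 28.6% were higher and 36.3% lower. Of the other intermediate filament genes, 9 of the 13 tested were higher in EV, 1 was lower and 3 missed the threshold (median 0.22 on the log2 scale). VIM, the vimentin gene, stood at 1724 ± 5.99 CPM in WFI and 1959 ± 31.0 CPM in EV (SD, n = 2; edgeR adjusted p = 4.66e-05), and the lamin gene LMNA was higher by 0.22 on the log2 scale. IFFO2 rose from 33.9 ± 1.70 to 348 ± 7.92 CPM, and PRPH, the neuronal filament gene peripherin, from 0 and 3 counts to 342 and 430. LMNB1 fell by 0.49 on the log2 scale, while LMNB2 rose by 0.20. NEFM, PRPH, DES and GFAP passed the filter only through EV and could only rise. Of the other 9 tested, 5 were higher and 1 was lower.

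The anchors that tie keratin filaments to desmosomes and hemidesmosomes mostly fell. Among the 16 tested, 11 were lower in EV, 4 higher and 1 missed the threshold. The median was -0.81 on the log2 scale, against 0.02 over all genes tested, of which 31.5% were lower. Without EPPK1 and PKP1, 11 of the other 14 were lower and 2 higher, with a median of -0.84. Genes with 10 or more counts in both WFI libraries had a median of -0.13, with 36.3% lower. PLEC, encoding the linker plectin, stood at 1563 ± 49.4 CPM in WFI and 566 ± 29.6 CPM in EV. Its log2 fold change was -1.47 (SE 0.04, edgeR adjusted p = 8.76e-11). DST, encoding the hemidesmosomal linker dystonin, stood at 285 ± 7.86 CPM in WFI and 52.5 ± 1.86 CPM in EV, with a log2 fold change of -2.44 (SE 0.05, edgeR adjusted p = 1.08e-11). The desmosomal cadherin gene DSG2 fell from 343 ± 11.7 to 189 ± 4.22 CPM, DSC3 fell by 0.82 and the integrin gene ITGA6 fell by 0.37 on the log2 scale. DSP, which encodes desmoplakin, the link from desmosome to keratin, fell by 0.80, and JUP, encoding plakoglobin, fell by 1.02. Among the rises, EPPK1, encoding the keratin-bundling epiplakin, went from 2 and 2 counts to 102 and 134, PKP1 from 0 and 1 to 34 and 34 (both entered the test only through EV), and ITGB4 by a log2 fold change of 1.16. DSP, JUP, EPPK1, PKP1 and ITGB4 were chosen for mention after their values were seen. The list holds very long genes, and with an offset for spliced length 10 fell and 5 rose, PLEC was at -0.69 and DST at -1.21.

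The 15 keratin-binding and turnover genes were all tested: 8 were higher in EV, 3 lower and 4 missed the threshold (median 0.32 on the log2 scale). All genes with 10 or more counts in both WFI libraries had a median of -0.13, with 28.6% higher and 36.3% lower. HSPB1, a small heat shock protein that binds filaments, was higher by 0.73 on the log2 scale and DNAJB6, a cochaperone that binds KRT18, by 0.66. TGM2 rose by 0.33, SFN by 0.34 and SQSTM1 by 0.22, while CSNK1A1 fell by 0.23 on the log2 scale and YWHAZ stood at 1292 ± 0.0114 CPM in WFI and 1256 ± 0.865 CPM in EV without passing (edgeR adjusted p = 0.171). With the offset for spliced length the SFN call was lost, CSNK1A1 was at 0.040 and YWHAZ at 0.29, and YWHAZ was also above 0 under upper quartile scaling.

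Of the transcription factors of keratin genes, 11 of the 16 tested were higher in EV, 3 were lower and 2 missed the threshold (median 0.83 on the log2 scale). Of all genes tested, 34.5% were higher and 31.5% lower. TP63 and OVOL1 passed the filter only through EV and could only rise. Among the other 14 tested, 9 were higher and 3 lower, and the median was 0.52. The median over all genes with 10 or more counts in both WFI libraries was -0.13, with 28.6% higher and 36.3% lower. KLF4, an activator of epithelial differentiation genes, stood at 30.6 ± 1.86 CPM in WFI and 469 ± 5.36 CPM in EV. Its log2 fold change was 3.94 (SE 0.05, edgeR adjusted p = 4.30e-13), and that of KLF5 was 2.72. SP1, a general activator, stood at 150 ± 2.08 CPM in WFI and 47.7 ± 6.02 CPM in EV, a log2 fold change of -1.66 (SE 0.07, edgeR adjusted p = 7.22e-09), and NFE2L2 fell by 0.37. SOX9 stood at 104 ± 1.44 CPM in WFI and 110 ± 2.21 CPM in EV and did not pass (edgeR adjusted p = 0.181). TP63, the regulator of basal keratins, had 0 counts in WFI and 30 and 27 in EV, and the hair keratin regulator HOXC13 was higher by 0.72. Both were chosen after their values were seen. Of 21 cornified envelope genes, the products of late squamous differentiation, 16 lay below the filter and 13 had 0 counts in the controls. Of the 5 tested, 3 were higher, FLG only through EV, and 2 missed the threshold, where 34.5% of all genes tested were higher. FLG had 0 and 2 counts in WFI and 20 and 35 in EV, SBSN 11 and 6 against 27 and 32, and CNFN 18 and 7 against 24 and 35. The CNFN call (edgeR adjusted p = 0.0499) was lost without WFI replicate 2 (0.375), without EV replicate 1 (0.0570) and without EV replicate 2 (0.172), and that of SBSN without WFI replicate 2 (0.117).

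**Figure D5:**
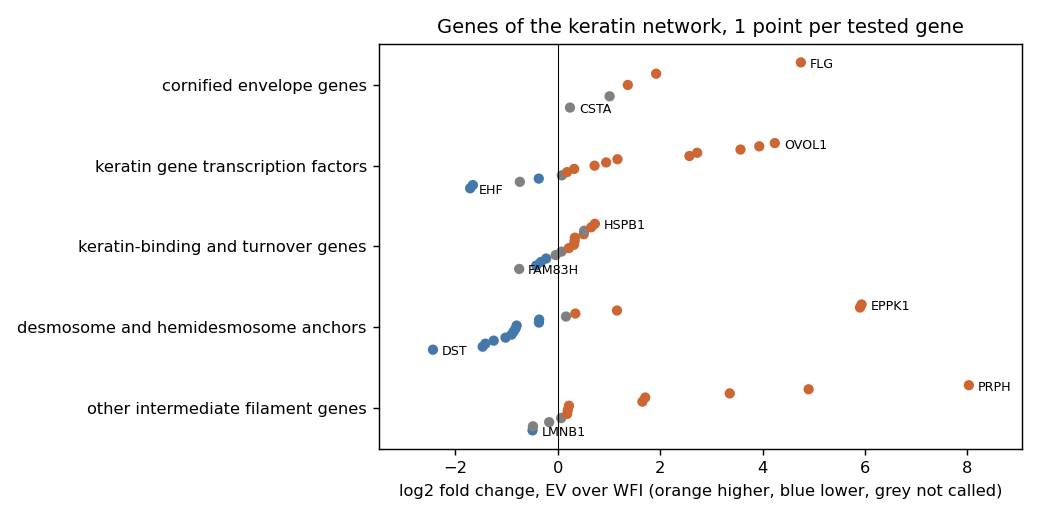
Log2 fold change of EV over WFI for the tested genes of the 5 related lists, 1 point per gene, without NEFM and TP63, which had 0 counts in both controls, and without 1 gene of the keratin-binding list. Orange points rose, blue points fell and grey points did not pass, and the anchors lie mostly left of 0, from DST at -2.44.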

How the data were processed

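RNA-seq counts were used for 4 libraries, made with a directional kit per the labels' protocols. The deposited values are raw counts of reads per gene that the authors did not normalize, and the build was hg38 per the submitters' processing notes. How reads were aligned and counted, with which annotation and whether by strand, is not given in the sources used here. Symbols matched 61757 of 61860 identifiers. GENCODE release 29, of the same build, gave gene types, coordinates and lengths (58308 identifiers).

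Counts were tested with edgeR 4.0.16 in R 4.3.3 (TMM scaling, filterByExpr, quasi-likelihood test, group as the only term) over all 17465 genes that passed the filter, with Benjamini-Hochberg adjustment over all of them and a threshold of 0.05. CPM use TMM-scaled library sizes. The SE is the log2 fold change divided by the square root of F. Folds from 0 counts are bounds against 3 counts per library in the controls. They take the mean EV level as exact, so they allow for no error in EV. For 1 to 3 control counts an exact binomial 95% interval is given, which covers counting error only. Coding identity came from global alignment (Biopython 1.88) of the longest open reading frames. Alternatives were DESeq2 1.42.0, other scalings and filters, a replicate block, each library left out, a minimum log2 fold change of 1 and a spliced length offset. The fit was tested on simulated counts.

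The members and lists were chosen with earlier results of these data known. All keratins are named, with the 3 genes of smallest adjusted p of each related list and those above 100 CPM. Values of 1 gene that this rule names, and of 1 immune marker, are not reported here, though the counts and sums of their lists include them. Whether the replicates came from separate cultures is not in the labels, and the p-values cover only the spread among these libraries, which could be technical. Within a group the libraries varied beyond counting error, with a chi-square divided by its degrees of freedom of 2.20 in WFI and 4.58 in EV.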

Additional observations from a re-analysis of the deposited data

How the results depend on the processing

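The 17 keratins higher and 2 lower in EV became 21 and 2 with DESeq2, 21 and 3 with no count filter and 7 and 2 with a filter of 50 counts in 2 samples, which removes genes with few counts. Lower keratins numbered 1 with upper quartile scaling, and 1 to 3 with each library left out, when 17 to 18 were higher. A minimum log2 fold change of 1 left 14 higher and 0 lower, without KRT18, KRT7, KRT10, KRT80 and KRT81. Those 14 include the 12 keratins that passed the filter only through EV and could only rise. Under the other alternatives that gave a value, 21 of the 23 keratins tested kept their call, the exceptions being KRT15 and KRT81. The same 12 keratins are among the 21, and since they could only rise, their kept calls say nothing about stability. KRT8 ranged from 1.29 to 1.56, KRT18 from 0.76 to 0.96 and KRT7 from 0.71 to 0.84. Related genes numbered 20 higher and 7 lower with a minimum log2 fold change of 1. CSNK1A1 (0.040) and YWHAZ (0.29) changed sign with the spliced length offset, and the cause was not tested.

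The mean type II to type I ratio was 2.42 in WFI and 2.18 in EV. It was 3.19 and 3.49 without length, 2.85 and 3.09 with coding length, and 2.16 in EV with pseudogene counts added, moves set by the lengths and rows used. The replicate number is shared by the groups only as a label: deviations of same-numbered libraries correlated at r = 0.0159 across genes. With a replicate block 17 keratins were higher and 2 lower, with KRT8 at 1.37, and over all genes 11530 were called against 11528. Keratins under 10 counts in every library fell below the filter, so the main test made no call for them.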
